A study of Mus musculus with 16 samples.

Results

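Male cultures that had been given house dust mite (HDM) extract were compared by genotype label, 2 libraries labelled LMAN1 KO against 2 labelled WT, so that 4 of the 16 libraries of the series carried the comparison. The 4 were taken by their sex, genotype and treatment labels, and every gene with enough reads was compared, 15993 in all. The cells were primary mouse tracheal epithelial cultures (MTECs), which are grown from pooled tracheas and matured at an air-liquid interface. The mice were C57BL/6J, and the KO and WT animals were littermates from heterozygous matings. HDM was added overnight at 20 µg/ml. The male naive cultures of both genotypes received no HDM, and the female HDM cultures were treated as the males were. Both served tests of whether the KO-WT difference varied with treatment or sex, and some of their levels are given beside the 4. The male naive libraries also entered the distances between libraries. All 16 libraries helped to estimate the spread.

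LMAN1 is a mannose-binding receptor that rides COPII vesicles and carries selected glycoproteins from the endoplasmic reticulum towards the Golgi, with MCFD2 as its partner. Coagulation factors and cathepsins are its best known cargo. The tracheal epithelium is built on basal cells, which hold the layer to its basement membrane and give rise to secretory and multiciliated cells. In culture or after injury the same layer can take on squamous features, with cornified envelope proteins and stress keratins. The comparison asks how HDM-treated male cultures labelled KO differ from those labelled WT. Whether the response to HDM itself differs by genotype is a separate question, tested by an interaction.

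The 4 libraries held 27584468 to 32831231 counts, against 21860698 to 43442188 over all 16. Levels are given in CPM, a gene's counts relative to the library's total after trimmed-mean (TMM) scaling, and differences as log2 fold changes, labelled KO minus WT, with their standard errors (SE). The 2 libraries labelled KO lay close together, at a distance of 10.7 over the 2000 most variable genes on log2(CPM + 4), whereas the 2 WT libraries lay 22.9 apart. Distances between a library labelled KO and a WT library ran from 19.1 to 29.3, and WT replicate 1 was the farther of the WT pair in both cases. Male naive KO replicate 2 was nearer to the 2 HDM libraries labelled KO, at a mean distance of 9.90, than to its own replicate, at 23.1. The 2 WT HDM libraries, like the 2 naive WT libraries at 22.7, therefore differed from each other about as much as the genotypes did, and male naive KO replicate 2 went against its pair.

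Lman1 itself was not absent from the libraries labelled KO. Its level was 65.0 and 66.0 CPM in those 2 libraries and 111 and 144.1 CPM in WT, or 51.0% and 51.8% of the WT mean. The difference was -0.96 (SE 0.44) with an adjusted p of 0.274 in edgeR's quasi-likelihood test, so the targeted gene did not pass. It passed in the 8 HDM libraries alone (adjusted p 0.0338) and without male naive KO replicate 2 (adjusted p 0.0332), but not in DESeq2 over all 16 libraries (adjusted p 0.275). In male naive KO replicate 1 it stood at 14.2 CPM and in replicate 2 at 63.4 CPM, and the 2 female naive KO libraries both held 12.8 CPM. The female HDM libraries labelled KO held 66.6 and 78.1 CPM. The 5 libraries at 63.4 to 78.1 CPM thus included all 4 HDM libraries labelled KO. The counts do not show whether the reads cover an intact transcript, and the genotype of these cultures is taken from the labels alone. Mcfd2, which encodes the partner protein, held 60.4 and 67.5 CPM in WT and 72.9 and 69.8 CPM in the libraries labelled KO, a difference of 0.16 (SE 0.09) with an edgeR adjusted p of 0.376.

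**Figure D1:**
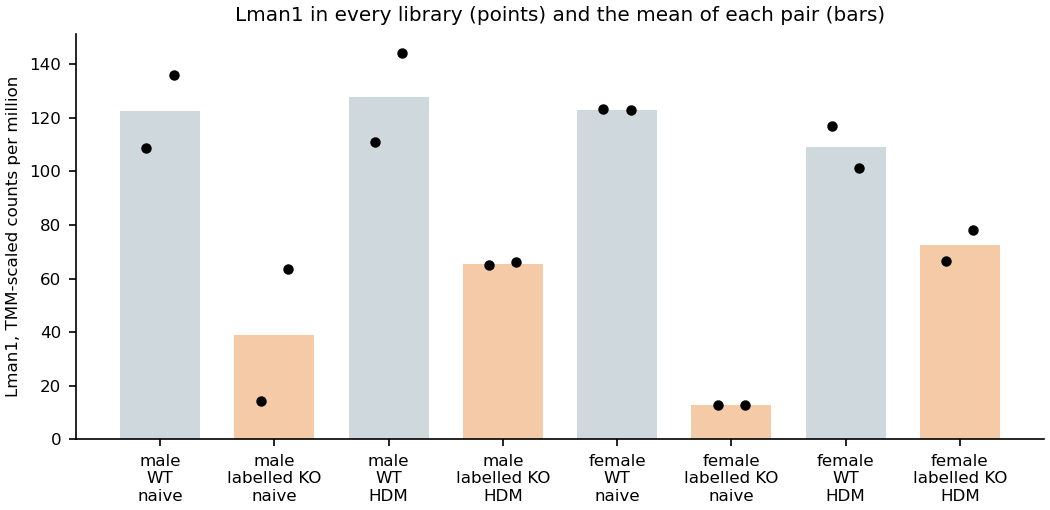
Lman1 in each of the 16 libraries, in TMM-scaled CPM on the vertical axis, by sex, genotype label and treatment; points are libraries and bars are means of 2. The 2 male HDM libraries labelled KO sit at 65.0 and 66.0, between the WT libraries, at 101.3 or more, and the 3 naive KO libraries at 14.2 or less.

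No gene passed an adjusted p of 0.05 in edgeR's quasi-likelihood test over the 15993 genes (0% called; smallest adjusted p 0.159). At an unadjusted p under 0.05 there were 2897 genes (18.1%), of which 1223 (7.65%) were higher in the libraries labelled KO and 1674 (10.5%) lower. DESeq2 called 562 of the 12272 genes it adjusted (4.58%), 160 higher and 402 lower, and limma-voom called 0. The quasi-likelihood test on the 8 HDM libraries alone called 109 of 15385 (0.708%), 24 higher and 85 lower. Leaving out male naive KO replicate 2, the library that went against its pair, gave 130 calls of 16572 (0.784%), 37 higher (0.223%) and 93 lower (0.561%), and 123 of these 130 were also DESeq2 calls. All values below are therefore given as measurements that did not pass the main test. These alternatives all compared the same male HDM libraries and so rest on the same differences between them. A gene that passed in several of them was therefore not supported separately by each. The fit without male naive KO replicate 2 was also chosen after seeing the data, because that library went against its pair. Of the genes described by list below and outside the 30 with the smallest p, Serpinb2, Padi4, Bpifa1, Prdx6, Ifit1, Egr1, Tuba1a, Cxcl1, Arg1 and Perp passed in each of these 3 alternatives: DESeq2, the HDM libraries alone and the fit without male naive KO replicate 2. Krt13, Cyp4a12b and Cyp2s1 passed in DESeq2 and without male naive KO replicate 2, Jun in DESeq2 and the HDM libraries alone, and Il33 and Ctsc in the HDM libraries alone. DESeq2 alone of the 3 called Itga6, Bcam, Reg3g, Muc1, Duoxa1, Nfe2l2, Gpx2, Ifit3b, H2-Q4, Isg15, Mvk, Acaca, Cdc20, Ube2c, Ccnb1, Klf4, Spry2, Lyz2, Ergic1, Lman2, Sec23b and Atf4.

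The 30 genes with the smallest p all had an edgeR adjusted p of 0.159, and in each of them the 2 genotypes did not overlap. Choosing them by p in these same libraries made that separation nearly certain. Of the 2897 genes with an unadjusted p under 0.05, 2890 did not overlap. Over all genes, 26.2% did not overlap with higher values in the libraries labelled KO and 27.5% with lower values. Of the 30, 26 were lower in the libraries labelled KO and 4 were higher, with differences of 0.29 to 1.84 in size. DESeq2 called all 30, the fit without male naive KO replicate 2 called 28, and the HDM libraries alone called 13. Lamb3, the beta-3 chain of the laminin under hemidesmosomes (ENSMUSG00000026639, GRCm38 chromosome 1, 193207699 to 193343878, plus strand), had the smallest p of all genes. It held 346.9 and 373.4 CPM in WT and 162.4 and 147.4 CPM in the libraries labelled KO, a difference of -1.22 (SE 0.19, 95% interval -1.63 to -0.80). Every library labelled KO was thus well under every WT library. Its partner chain Lama3 held 157.4 and 140.6 CPM against 85.2 and 74.6 CPM (-0.90, SE 0.19). Hspg2, which encodes the basement membrane proteoglycan perlecan, held 85.6 and 80.2 CPM against 42.0 and 37.0 CPM (-1.07, SE 0.22).

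The receptor tyrosine kinase Ephb4, which binds ephrins on neighbouring cells, held 126.3 and 127.4 CPM in WT and 90.2 and 88.2 CPM in the libraries labelled KO. Notch3, a receptor of early secretory differentiation, held 88.2 and 90.0 CPM against 58.1 and 60.2 CPM (-0.59, SE 0.11). Gas6, a ligand of the TAM receptors, differed by -0.57 (SE 0.11), the planar polarity receptor Ptk7 by -0.51 (SE 0.11) and the actin-severing protein Gsn by -0.59 (SE 0.11). Small differences with little spread were found for Arhgap23 (-0.39), Ralgds (-0.41), Rgs12 (-0.47) and Acap3 (-0.51), regulators of small G proteins or G protein signalling. Eif2ak3, the kinase PERK that senses misfolded protein in the endoplasmic reticulum, held 40.9 and 43.8 CPM against 31.2 and 32.5 CPM (-0.41, SE 0.07). Lower values were also seen for the heparan sulfate enzyme Hs6st1 (-0.41), the glycosyltransferase B4galnt3 (-1.37), the glutamine synthetase Glul (-0.55), the stress-induced Sesn3 (-0.29) and Ppp1r13l (-0.45), the secretory regulator Sytl1 (-0.51), Ahnak2 (-0.37), Mab21l3 (-1.36), Tmem40 (-1.11) and Dynlt1a (-0.95). Frmpd4 had the largest difference of the 30, -1.84, at under 1 CPM in every library compared.

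Of the 4 genes with higher values, 3 are metabolic or secreted. Sult1d1, a sulfotransferase, held 15.4 and 14.3 CPM in WT and 33.9 and 44.1 CPM in the libraries labelled KO (1.39, SE 0.26). Cyp2b10, a cytochrome P450 of the club cell lineage and liver, held 19.2 and 13.3 CPM against 37.1 and 38.1 CPM (1.21, SE 0.25). The secreted cystatin family member Fetub held 107.1 and 112.5 CPM against 170.5 and 195.3 CPM (0.74, SE 0.14). Rnf130, a ubiquitin ligase, differed by 0.39 (SE 0.07). In male naive KO replicate 2, 25 of the 30 genes lay nearer to the HDM mean of the libraries labelled KO than to that of WT, against 8 in male naive KO replicate 1. Lamb3, for example, was at 289.5 CPM in naive KO replicate 1 and 194.3 CPM in replicate 2.

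**Figure D2:**
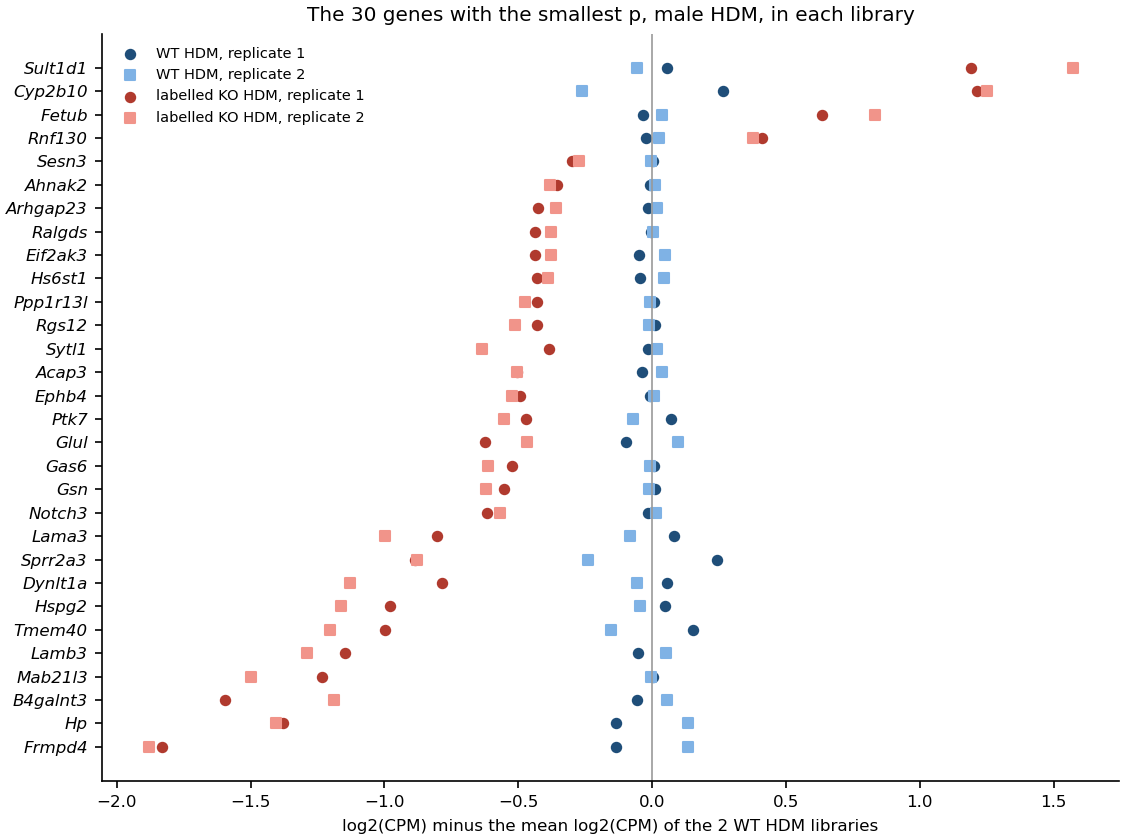
Each of the 30 genes with the smallest p in the 4 male HDM libraries; the horizontal axis is log2(CPM) minus the mean log2(CPM) of the 2 WT libraries. Blue points are WT and red points labelled KO. The genes were chosen by p in these libraries, so separate red and blue points follow from the choice. Red points lie to the left in 26 genes and to the right in 4.

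Gene lists were read against the shares over all genes, 7.65% higher and 10.5% lower at an unadjusted p under 0.05, and against a median difference of -0.01 over all genes. The squamous and cornified list had the lowest median of the lists described. Of its 19 tested members, 14 were lower at that threshold and 0 higher, 16 did not overlap in that direction (27.5% of all genes), and the median was -1.07. Krt13, a keratin of non-cornified squamous epithelium, held 66.8 and 67.5 CPM in WT against 17.0 and 28.9 CPM in the libraries labelled KO (-1.55, SE 0.38, adjusted p 0.159). Serpinb2, a protease inhibitor of stressed keratinocytes, held 22.8 and 22.3 CPM against 6.31 and 6.50 CPM (-1.81, SE 0.44, adjusted p 0.159), and Sprr2a3, a cornified envelope precursor, 83.8 and 60.0 CPM against 38.3 and 38.5 CPM. The libraries labelled KO were thus low for all 3, and each passed in the fit without male naive KO replicate 2. Padi4, which converts arginine to citrulline in proteins and was chosen after its values were seen, held 16.1 and 11.0 CPM against 1.71 and 1.75 CPM (-2.96, SE 0.66, adjusted p 0.159). The summed level of the squamous list was 1966 and 1595 CPM in WT and 833.6 and 868 CPM in the libraries labelled KO.

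Basal cell genes were lower in part. Of 15 tested members 7 were lower at an unadjusted p under 0.05, 0 higher, and the median was -0.40. Beside Lamb3, the members with the smallest p were a pair of receptors for laminin. Itga6, an integrin of hemidesmosomes, held 324.4 and 323.8 CPM against 215.1 and 219.6 CPM (-0.58, SE 0.16, adjusted p 0.166), and Bcam 456.5 and 305.1 CPM against 224.5 and 225.6 CPM (-0.76, SE 0.24, adjusted p 0.182). Trp63, the master regulator of basal identity, was nearly level, at 235.2 and 279 CPM against 249 and 268.2 CPM (0.01, SE 0.19, 95% interval -0.41 to 0.43). Per kilobase of exon, the basal keratin Krt5 stood at 1858 and 2167 CPM in WT and 1231 and 1260 CPM in the libraries labelled KO. Krt15 overlapped, at 1621 and 1246 CPM against 1402 and 1442 CPM. Krt14 was at 550.4 and 1545 CPM against 535.3 and 509.6 CPM, so its gap lay mostly in WT replicate 2. Krt17 stood at 594.2 and 815.7 CPM against 463.2 and 426.8 CPM. In the Notch list, whose receptors set the balance of basal and secretory fates, 5 of 14 were lower and 0 higher, with a median of -0.38; after Notch3, the glycosyltransferase Lfng (-0.82, adjusted p 0.182) and the feedback target Nrarp (-0.73, adjusted p 0.189) had the smallest p.

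Club and secretory genes lay the other way. Of 15 tested members 9 were higher at an unadjusted p under 0.05 and 1 lower, and the median was 0.57. Bpifa1, an abundant secreted defence protein of the upper airway, held 52.6 and 52.0 CPM in WT and 223.9 and 258.8 CPM in the libraries labelled KO (2.21, SE 0.59, adjusted p 0.162). It passed in the DESeq2 fit, in the HDM libraries alone and without male naive KO replicate 2. Reg3g, an antibacterial lectin, held 2095 and 3370 CPM against 5999 and 6883 CPM (1.24, SE 0.28, adjusted p 0.159). The exception was Hp, haptoglobin, at 199.7 and 240.8 CPM against 84.3 and 82.9 CPM (-1.40, SE 0.29, adjusted p 0.159). Scgb1a1, the classical club cell product, was at 0.599 to 1.75 CPM in all 4 libraries, so that the label of a club cell rests here on other genes. The highest of them per kilobase was Cyp2f2, at 7401 and 6929 CPM in WT and 8617 and 9342 CPM in the libraries labelled KO. The summed club list ran from 30250 to 31900 CPM in WT and from 41000 to 45230 CPM in the libraries labelled KO. In these bulk libraries more cells of a type and more RNA per cell cannot be told apart.

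Goblet and mucin genes showed fewer differences, 3 of 14 higher and 1 lower, with a median of 0.26. Muc1, a membrane mucin, held 485.8 and 493.1 CPM against 725.6 and 803.6 CPM (0.64, SE 0.20, adjusted p 0.182), whereas Clca1, a secreted protein of goblet cells, held 3.53 and 5.44 CPM against 2.28 and 2.41 CPM (-0.93, SE 0.31, adjusted p 0.194). Muc5b, a gel-forming mucin, held 39.8 and 34.4 CPM against 56.7 and 99.8 CPM (1.08, SE 0.44, adjusted p 0.236). Antimicrobial genes were split, 7 of 18 higher and 4 lower; beside Bpifa1 and Reg3g, the oxidase maturation factor Duoxa1 held 15.4 and 8.31 CPM against 3.71 and 3.96 CPM (-1.63, SE 0.41, adjusted p 0.161). Of 23 cytochrome P450 genes, 6 were higher and 2 lower. Cyp4a12b, a fatty acid hydroxylase, held 18.6 and 31.2 CPM against 57.4 and 64.5 CPM (1.29, SE 0.31, adjusted p 0.159), and Cyp2s1 27.2 and 22.6 CPM against 41.3 and 41.4 CPM (0.73, SE 0.20, adjusted p 0.170). Both passed without male naive KO replicate 2, as did Cyp2b10. The antioxidant enzyme Prdx6, of the glutathione list, held 992.5 and 1045 CPM against 1574 and 1697 CPM (0.68, SE 0.15, adjusted p 0.159) and also passed there. Nfe2l2, which encodes the regulator NRF2, differed by 0.30 (adjusted p 0.161) and the glutathione peroxidase Gpx2 by -0.46 (adjusted p 0.182); over that list of 34, 4 were higher and 4 lower.

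**Figure D3:**
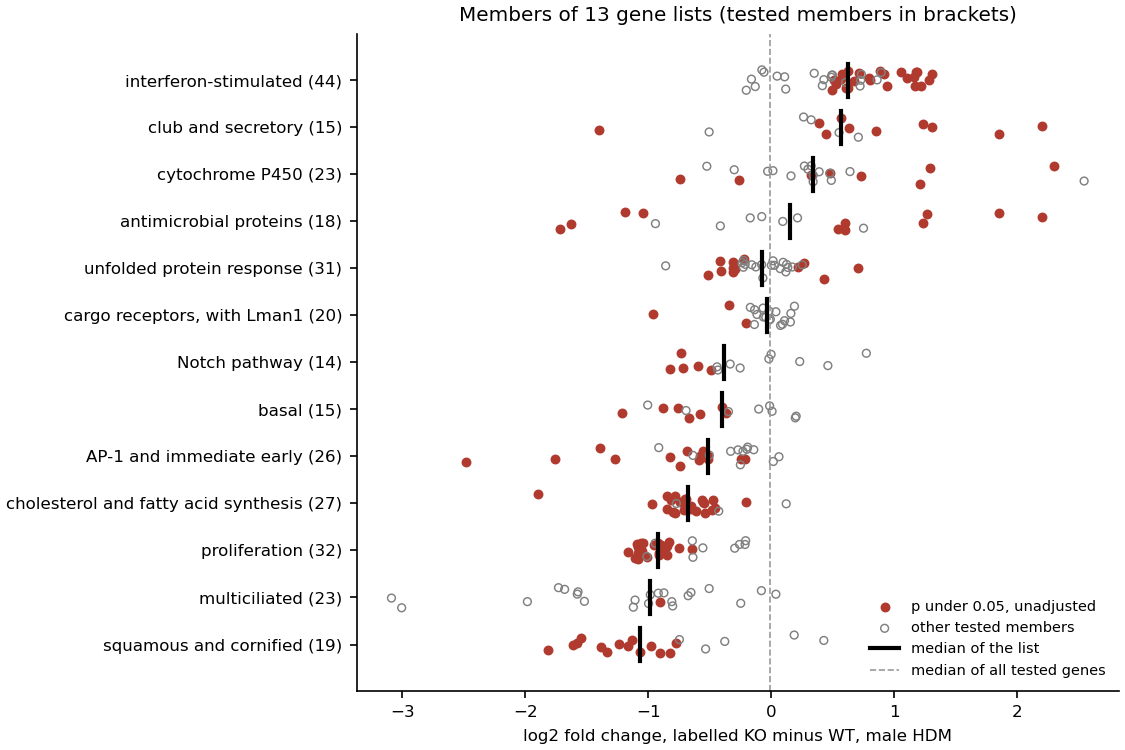
Log2 fold change, labelled KO minus WT in male HDM cultures, of each tested member of 13 lists; filled red points have an unadjusted p under 0.05, black bars are list medians and the dashed line is the median of all tested genes. List medians run from -1.07 for squamous genes to 0.63 for interferon-stimulated genes, and no member passed the adjusted threshold.

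Interferon-stimulated genes, which cells switch on after sensing interferon, had mostly higher values in the libraries labelled KO. Of 44 tested, 24 were higher at an unadjusted p under 0.05 and 0 lower, 34 did not overlap in that direction (26.2% of all genes), and the median was 0.63. Ifit1, which binds foreign RNA, held 26.2 and 25.6 CPM in WT and 52.0 and 68.4 CPM in the libraries labelled KO (1.22, SE 0.27, adjusted p 0.159). Its relative Ifit3b held 3.31 and 2.44 CPM against 4.57 and 7.81 CPM (1.11, SE 0.29, adjusted p 0.161), and the antiviral GTPase Mx2 0.630 and 0.371 CPM against 1.21 and 1.24 CPM (1.29, SE 0.35, adjusted p 0.162). Reads of the Ifit copies may be shared between near-identical genes. The values of Ifit1 were 22.2 and 36.6 CPM in naive WT and 25.3 and 40.5 CPM in naive KO, so that replicate 2 was the higher in both naive pairs. Ifit1 was the only member to pass without male naive KO replicate 2. Of 23 genes of antigen presentation, 2 were higher (8.7% against 7.65% of all genes) and 0 lower. H2-Q4, a class I molecule of a family with near-identical copies, held 34.7 and 30.6 CPM against 46.8 and 46.7 CPM (0.52, SE 0.12, edgeR adjusted p 0.159). The peptide transporter subunits Tap2 (0.36, edgeR adjusted p 0.209) and Tap1 (0.19, edgeR adjusted p 0.389) differed less.

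The stretches upstream of 4 interferon-stimulated genes that were higher in both libraries labelled KO are shown because these genes share a response motif. They come from RefSeq on GRCm38.p6, are written 5′ to 3′ on the gene's own strand, and carry in capitals each match to the interferon-stimulated response element, searched as TTTC, any 2 bases, TTTC, or its reverse complement. Matches were sought in the 250 bases before each start; matches may overlap, as in Isg15.
Ifit1, chr19:34640745-34640834, plus strand: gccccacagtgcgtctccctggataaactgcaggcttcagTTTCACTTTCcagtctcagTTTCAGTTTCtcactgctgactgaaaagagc
Ifit3b, chr19:34607729-34607818, plus strand: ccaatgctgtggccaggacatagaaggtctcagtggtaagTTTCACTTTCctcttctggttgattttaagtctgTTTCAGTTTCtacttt
Stat2, chr10:128270248-128270325, plus strand: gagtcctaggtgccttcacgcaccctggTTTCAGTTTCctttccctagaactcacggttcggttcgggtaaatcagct
Isg15, chr4:156200847-156200936, minus strand: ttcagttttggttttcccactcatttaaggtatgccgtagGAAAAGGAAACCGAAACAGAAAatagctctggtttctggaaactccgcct
The motif was found in 16 of the 32 list members that had a window (50%) and in 936 of 27025 genes with a window (3.46%). A match of letters is a description and not a shown binding site. Stat2 and Isg15 are members of the list outside the 3 with the smallest p; Stat2 held 17.0 and 17.9 CPM in WT against 25.4 and 31.9 CPM in the libraries labelled KO, and Isg15 7.28 and 6.15 CPM against 12.9 and 17.4 CPM.

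Cholesterol and fatty acid synthesis genes, which SREBP factors drive when sterols run low, were lower nearly throughout. Of 27 tested, 24 were lower at an unadjusted p under 0.05 (10.5% of all genes) and 0 higher. In that direction 26 did not overlap (27.5% of all genes), and the median was -0.68. Mvk, mevalonate kinase, held 26.8 and 21.1 CPM in WT and 16.7 and 16.4 CPM in the libraries labelled KO (-0.53, SE 0.14, adjusted p 0.162). Acaca, which commits acetyl-CoA to fatty acids, held 101.1 and 77.3 CPM against 55.2 and 58.2 CPM (-0.65, SE 0.18, adjusted p 0.170). DESeq2 called 8 of the list, the HDM libraries alone 2, and the fit without male naive KO replicate 2 called 0. Over all genes, DESeq2 called 4.58% of those it adjusted and the HDM libraries alone 0.708%. The exception in direction in the list was Scd1, a fatty acid desaturase, with a difference of 0.12 (SE 0.19). The motif TCACNCCAC of sterol-responsive promoters was found in the windows of 1 of 17 members (5.88%) and of 331 of 27025 genes (1.22%).

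Proliferation genes followed a like pattern with more spread in WT. Of 32 tested, 23 were lower and 0 higher at an unadjusted p under 0.05, and the median was -0.92. Cdc20, an activator of the mitotic ubiquitin ligase, held 85.5 and 54.3 CPM in WT and 35.7 and 30.2 CPM in the libraries labelled KO (-1.09, SE 0.34, adjusted p 0.182). Ube2c held 46.8 and 26.1 CPM against 18.2 and 15.9 CPM (-1.10, SE 0.35, adjusted p 0.183), and Ccnb1, a mitotic cyclin, 45.7 and 28.8 CPM against 17.1 and 16.2 CPM (-1.16, SE 0.41, adjusted p 0.203). In all 3 the WT replicate 1 library was the highest. Among AP-1 and immediate early genes, 14 of 26 were lower and 0 higher, with a median of -0.51. Jun held 142.7 and 143.1 CPM against 104.6 and 95.5 CPM (-0.51, SE 0.13, adjusted p 0.159), Klf4 102.7 and 76.8 CPM against 62.5 and 59.7 CPM (-0.56, SE 0.15, adjusted p 0.161), and Egr1 76.7 and 56.0 CPM against 28.0 and 27.1 CPM (-1.27, SE 0.36, adjusted p 0.170). In the EGF receptor list 5 of 15 were lower, among them the ligands Areg (-1.52, SE 0.59, adjusted p 0.221) and Ereg (-1.05, SE 0.41, adjusted p 0.223), and 1 was higher, the feedback inhibitor Spry2 (0.55, SE 0.14, adjusted p 0.161).

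For several of these lists the libraries labelled KO resembled the second replicate of the other male groups. The mean of log2(CPM + 1) over the cholesterol list was 6.01 and 6.02 in the HDM libraries labelled KO. It was 6.75, 6.69 and 6.86 in replicate 1 of naive WT, naive KO and HDM WT, and 6.24, 6.07 and 6.43 in replicate 2 of the same groups. The proliferation list gave 4.58 and 4.43 in the HDM libraries labelled KO, 5.44 to 5.65 in those replicate 1 libraries and at most 4.89 in replicate 2. Multiciliated genes gave 1.77 and 1.88 against 2.77 to 3.19 and 1.78 to 2.13. Of 23 tested, 1 was lower at an unadjusted p under 0.05, although 16 did not overlap in that direction (27.5% of all genes). Their highest member per kilobase, Tuba1a, a tubulin that is not restricted to cilia, held 93.7 and 92.6 CPM in WT and 51.0 and 48.3 CPM in the libraries labelled KO (-0.91, SE 0.27, adjusted p 0.176), while the axonemal genes Hydin (-3.01, SE 1.40, adjusted p 0.286) and Dnah5 (-1.73, SE 0.82, adjusted p 0.290) had wide errors. Without WT HDM replicate 1 the median difference shrank from -0.68 to -0.40 for cholesterol, from -0.92 to -0.47 for proliferation, from -0.98 to -0.52 for multiciliated and from -0.51 to -0.19 for AP-1 genes. The medians of the squamous (-0.93), basal (-0.44), club (0.53) and interferon lists (0.80) without that library stayed within 1.5 times their full values. What sets the first replicates apart from the second was not tested.

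**Figure D4:**
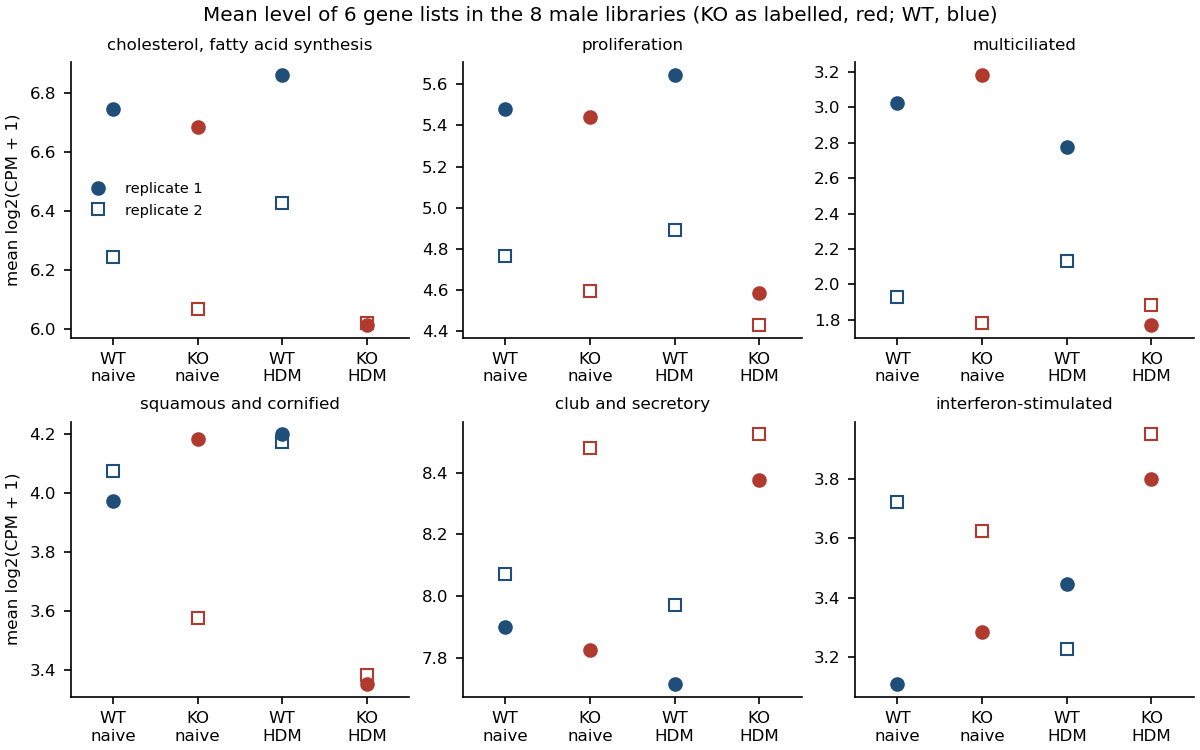
Mean log2(CPM + 1) of 6 gene lists in each of the 8 male libraries, by genotype label and treatment; filled circles are replicate 1 and open squares replicate 2. In the cholesterol, proliferation and multiciliated panels replicate 1 is the higher in the first 3 groups while both HDM libraries labelled KO lie low, and in the squamous and club panels naive KO replicate 2 lies beside the HDM libraries labelled KO.

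Markers of other cell types in the cultures were examined in the same libraries. Of 23 fibroblast genes 0 passed an unadjusted p under 0.05, with a summed level of 257.3 and 370.1 CPM in WT and 332.2 and 182.1 CPM in the libraries labelled KO, and Tcf21 was at 0. Immune markers had 2 of 12 higher (16.7% against 7.65% of all genes) and 0 lower. Their sums were 242.9 and 311.4 CPM against 371.7 and 455 CPM. Among them, Lyz2 is also made by the airway epithelium. Lyz2 held 136.7 and 143 CPM of these sums in WT and 185.3 and 238.3 CPM in the libraries labelled KO. The chemokine receptor Ccr2 held 35.1 and 68.3 CPM against 91.3 and 107.8 CPM, also without overlap. Cd68 and Cd74 overlapped between the genotypes. The T cell genes Cd3e, Cd3g and Cd8a were at 0 in all 4. Endothelial sums were 3.06 to 5.13 CPM, with Cdh5, Erg and Emcn at 0. Smooth muscle sums were 21.6 and 81.7 CPM against 41.0 and 34.6 CPM, with 1 of 8 lower. The part of these cells in the differences above was not tested.

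In the secretory pathway where LMAN1 acts, most genes showed no difference at an unadjusted p under 0.05. Of 20 tested cargo receptors and related genes 3 were lower (15% against 10.5% of all genes), Lman1 among them. In that list 0 were higher, and the median was -0.03. Ergic1, a cycling protein of the ER-Golgi intermediate compartment, held 203.8 and 176.8 CPM in WT and 150.2 and 149.7 CPM in the libraries labelled KO (-0.34, adjusted p 0.170), and the related lectin Lman2 223.9 and 213.3 CPM against 187.2 and 191.8 CPM (-0.21, adjusted p 0.177). Of 7 genes that encode known cargo, 2 were lower (28.6% against 10.5% of all genes) and 0 higher. The protease Ctsc held 78.9 and 89.2 CPM against 54.5 and 55.5 CPM (-0.61, SE 0.20, edgeR adjusted p 0.190). The gamma-secretase subunit Ncstn differed by -0.17 (edgeR adjusted p 0.265). F5, coagulation factor V, held 5.23 and 9.30 CPM against 5.24 and 7.05 CPM (-0.24, SE 0.35), within its own spread. Over 27 genes of COPII and COPI transport 2 were higher (7.41% against 7.65% of all genes) and 1 lower (3.70% against 10.5%). The inner COPII coat gene Sec23b held 332.7 and 446.9 CPM against 605.5 and 639.1 CPM (0.68, SE 0.19, adjusted p 0.170), Mia3 differed by 0.20 (adjusted p 0.250) and Copg1 by -0.15 (adjusted p 0.270).

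Unfolded protein response genes went in both directions, with a median of -0.08. Of 31 tested, 4 were higher (12.9% against 7.65% of all genes) and 8 lower (25.8% against 10.5%). The 4 were Atf4 (0.27), its targets Trib3 (0.71) and Asns (0.22), and Ddit3 (0.43), all of the amino acid and stress branch. The 8 were Eif2ak3 and genes of folding in the endoplasmic reticulum, Calr (-0.51), Sdf2l1 (-0.42), Pdia4 (-0.31), Pdia6 (-0.31), Pdia3 (-0.31), Manf (-0.29) and Hyou1 (-0.22); those past the 3 with the smallest p were named after their values were seen. Atf4 held 338.2 and 318 CPM in WT and 390.3 and 398.6 CPM in the libraries labelled KO (adjusted p 0.161).

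Alarmins, chemokines and type 2 effectors are signals through which airway epithelium takes part in allergic inflammation. Il33, an alarmin released by damaged epithelium, held 71.3 and 62.3 CPM in WT and 25.8 and 24.8 CPM in the libraries labelled KO (-1.40, SE 0.45, adjusted p 0.185), with 50.5 and 45.1 CPM in naive WT and 54.0 and 21.6 CPM in naive KO. It passed in the HDM libraries alone (adjusted p 0.0277) but not in DESeq2 (adjusted p 0.0756). Il1rn, the interleukin receptor antagonist, held 13.1 and 4.29 CPM against 3.53 and 2.03 CPM (-1.65, SE 0.62, adjusted p 0.217). Over the 14 tested genes of the alarmin list 4 were lower and 2 higher. Among 25 chemokines and receptors 3 were lower (12% against 10.5% of all genes) and 0 higher, with a median of 0.16. Cxcl1, which draws neutrophils, held 10.8 and 7.11 CPM against 2.39 and 2.62 CPM (-1.84, SE 0.59, adjusted p 0.185) and passed in DESeq2, in the HDM libraries alone and without male naive KO replicate 2. Cx3cl1 held 130.7 and 109.4 CPM against 81.8 and 82.8 CPM (-0.55, SE 0.18, adjusted p 0.192), and Ccl20, which draws dendritic cells, 7.21 and 3.46 CPM against 1.03 and 0.964 CPM (-2.41, SE 0.92, adjusted p 0.218). Of 13 type 2 effector genes 1 was higher (7.69% against 7.65% of all genes) and 2 lower (15.4% against 10.5%). Arg1, arginase, held 53.2 and 42.2 CPM against 24.6 and 25.5 CPM (-0.93, SE 0.25, adjusted p 0.162), and Stat6 differed by 0.19 (adjusted p 0.247). Of 18 targets of p53 6 were lower and 0 higher, led by the desmosomal gene Perp at 457.1 and 449.3 CPM against 289.1 and 278.3 CPM (-0.68, SE 0.17, adjusted p 0.159), then Plk2 (-0.64, adjusted p 0.196) and Bbc3 (-0.41, adjusted p 0.239).

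Whether the KO-WT difference in males depended on HDM was tested by the interaction of genotype and treatment. It called 0 of 15993 genes in edgeR (smallest adjusted p 0.560), with 1388 at an unadjusted p under 0.05, and DESeq2 and limma-voom called 0. The naive comparison of males called 0, with 867 at an unadjusted p under 0.05. List medians in naive cultures were close to 0 where those under HDM were large: -0.18 for squamous, -0.07 for cholesterol, -0.07 for proliferation, 0.25 for club and 0.03 for interferon-stimulated genes. These naive medians average 2 unlike libraries labelled KO. Without male naive KO replicate 2 the interaction called 4 genes: Lman1 (2.15, adjusted p 0.0297), Arg1 (-1.42, adjusted p 0.0297), Gas6 (-0.82, adjusted p 0.0423) and Lgi2 (-2.58, adjusted p 0.0423), the last named after its values were seen; with 1 naive library labelled KO, that library is taken to vary like the others.

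Whether it differed between the sexes was tested by the interaction of genotype and sex under HDM, which shares no library between its arms. Of 15993 genes 2119 passed, 898 with the male difference above the female one (5.61%) and 1221 below (7.63%). In 1621 of the 2119 the male and female differences had opposite signs, in 1934 the female difference was the larger in size, and in 621 the male difference had an unadjusted p under 0.05. The count was 689 without KO HDM replicate 1, 873 without KO HDM replicate 2 and 1134 without WT HDM replicate 1. Of the interferon-stimulated genes, 38 of 44 passed with the male difference above and 1 below. Their median difference was 0.63 in males and -1.61 in females. Ifit1 differed by 1.22 in males and by -1.10 in females, a gap of 2.32 (adjusted p 0.00374), Ifit3b by 1.11 and -4.18, a gap of 5.28 (adjusted p 4.2e-05), and Mx2 by 1.29 and -2.98, a gap of 4.27 (adjusted p 0.000564).

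Squamous and basal genes were divided by sex the other way. In the squamous list 11 of 19 passed with the male difference below and 0 above, and the medians were -1.07 in males and 1.08 in females; Krt13 differed by -1.55 in males, with a gap of -5.83 to the female value. In the basal list 8 of 15 passed below and 0 above, Itga6 among them with a gap of -1.06. Of the proliferation list 10 of 32 passed below and 0 above. The club list had 7 of 15 below and 0 above, although both sexes had a positive median, 0.57 in males and 2.55 in females, so there the female difference was the larger. The cholesterol list gave 1 of 27 below and 0 above. The female WT HDM libraries, 1 side of this test, held fibroblast markers at a summed 2740 and 4819 CPM, against 880.9 and 695.9 CPM in the female libraries labelled KO and 182.1 to 370.1 CPM in the 4 male HDM libraries. The part of that difference in the interaction was not tested.

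**Figure D5:**
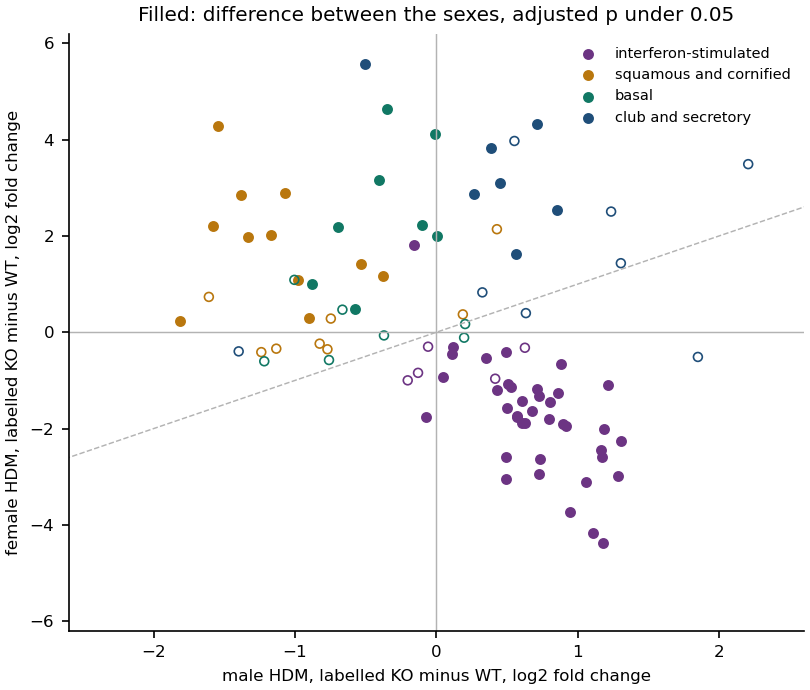
Log2 fold change of labelled KO minus WT under HDM in males (horizontal) and females (vertical) for members of 4 lists; filled points passed the test of the difference between the sexes at an adjusted p of 0.05, open points did not, and the dashed line marks equal differences. Interferon-stimulated genes gather at the lower right, with medians of 0.63 and -1.61, and most squamous genes at the left, with medians of -1.07 and 1.08.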

How the data were processed

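RNA of 16 MTEC libraries was made from enriched mRNA with random priming. The deposited values are whole-number read counts by Ensembl identifier, which the authors left unscaled. The submitters' processing notes name Trimmomatic 0.36, STAR 2.5.2b, featureCounts, Subread 1.5.2, DESeq2 and GRCm38, without their roles or a strand setting, so reads of overlapping genes could not be told apart. Symbols came from GENCODE M21 (49056 of 49315 identifiers matched). Counts were tested in R 4.3.3 with edgeR 4.0.16 (quasi-likelihood, 8 group means over all 16 libraries, TMM scaling, filterByExpr, Benjamini-Hochberg adjusted p under 0.05); the residual degrees of freedom were 8. DESeq2 1.42.0 and limma 3.58.1 served as alternatives. A DESeq2 adjusted p of NA stayed NA. In counts simulated for this comparison over 15837 genes, the test recovered 85% of 100 genes changed by 1 on the log2 scale and 98% of 100 changed by 2. The changed genes were drawn from those above a minimum mean level. Each gene was simulated independently in each library, without shifts that many genes of a library share. These shares therefore do not show how many real differences the test could find in these libraries. Named genes are Lman1 and Mcfd2, the 30 smallest p since under 20 genes passed, the 3 members of each described list with the smallest p, and the highest members of marker lists as levels. Trp63, Scd1, Scgb1a1, Stat2, Isg15 and the genes said so in the text were chosen after their values were seen. The members and lists were chosen with earlier results of these data known. The paper reports volcano plots of pairs of groups, top differentially expressed genes, and KEGG enrichment of K-means clusters with false discovery rates. Its methods name no differential test for these libraries. Replicates are labelled biological, with 2 per group. The p-values judge a difference against a spread estimated over all 16 libraries and shared across genes. That spread is not the one between the 2 cultures of each compared group alone. Some items are not reported here.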

Additional observations from a re-analysis of the deposited data

Results flagged for a closer look

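The KO-WT difference under HDM differed between males and females, by edgeR's test of the interaction, in 2119 genes, and the named genes among them are given with the male minus female gap on the log2 scale. The male difference was the higher for Ifit1 (2.32), Ifit3b (5.28), Mx2 (4.27), H2-Q4 (1.45) and Tap1 (0.58). It was the lower for the squamous and basal genes Krt13 (-5.83), Serpinb2 (-2.05), Sprr2a3 (-1.20) and Itga6 (-1.06), and for the Notch genes Notch3 (-1.04) and Nrarp (-2.16). Among secretory, mucin and metabolic genes the gap was -2.18 for Muc1, -2.70 for Clca1, -2.12 for Cyp2b10, -2.06 for Cyp4a12b, -1.11 for Cyp2s1, -0.73 for Prdx6, -1.12 for Gpx2, -0.80 for Fetub, -2.07 for Glul and -3.56 for Duoxa1. A gap does not give the sign in each sex. Of these, Muc1, Cyp2b10, Cyp4a12b, Cyp2s1, Prdx6 and Fetub were higher in the libraries labelled KO of both sexes. In each of them the female difference was the larger. From Cyp2b10 to Fetub the female differences were 3.33, 3.35, 1.84, 1.42 and 1.54 in that order. Glul was lower in males (-0.55) and higher in females (1.53). The gap was -3.36 for Il33, -0.75 for Jun, -1.12 for Klf4, -2.42 for Egr1, -1.97 for Cdc20 and -2.04 for Ccnb1. The remaining leading genes gave -0.57 for Arhgap23, -0.36 for Ralgds, -1.13 for Tmem40, -0.63 for Gsn, -0.55 for Ppp1r13l, -0.50 for Rgs12, -0.55 for Acap3, -1.67 for Mab21l3 and -0.55 for Hs6st1. The female arm of this test holds the WT HDM libraries with high fibroblast markers; their part was not tested.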

How the results depend on the processing

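For the male HDM comparison, 0 genes passed in edgeR with other scalings, the stricter count filter, the 8 male libraries, robust dispersions, the newer quasi-likelihood method, without the 2 female WT HDM libraries, an adjusted p under 0.1 or a fold change minimum. DESeq2 called 562, DESeq2 on the 4 libraries 751, the 8 HDM libraries alone 109, the 4 libraries alone 1, and the fit without a filter on low counts 1896; the cause of the last was not tested. Leaving out both male naive KO libraries gave 136; that fit, the fits without male naive KO replicate 2 or the female WT HDM libraries, DESeq2 on 4 libraries, limma-voom and the newer quasi-likelihood method were chosen after seeing the data. Leaving out 1 library gave 0 to 130 calls, 130 without male naive KO replicate 2. The libraries left out singly were the 4 male HDM libraries and male naive KO replicate 2. No female library and no other naive library was left out singly. The male minus female counts therefore do not show how far that test rests on 1 female library. A group left with 1 library is assumed to vary like the other groups. Lman1 ran from -1.14 to -0.76 over libraries left out; it passed without male naive KO replicate 2 (-0.96, adjusted p 0.0332), without both male naive KO libraries (-0.96, adjusted p 0.0342), in the 8 HDM libraries (-0.96, adjusted p 0.0338), without a filter (-0.98) and in DESeq2 on 4 libraries (-0.96), and its adjusted p was 0.0946 to 0.642 in the alternatives where it did not pass. The HDM minus naive interaction called 0 throughout except 668 without a filter and 0 to 4 with 1 library left out. The male minus female interaction called 2119, 3428 without a filter, 965 with a fold change of at least 1 on the log2 scale, 3390 at an adjusted p under 0.1, and 689 to 2452 with 1 library left out (689 without KO HDM replicate 1, 873 without KO HDM replicate 2, 1134 without WT HDM replicate 1). Over 88 named genes and all alternatives, 1 value of 1753 changed sign: F5 was -0.60 to 0.23 over libraries left out, the latter without WT HDM replicate 2. Of list medians of at least 0.3 in size, 3 values changed sign. The replicate numbers did not pair the groups compared (correlation of deviations 0.0147), although same-numbered libraries of the other 3 male groups deviated together (0.459 to 0.496) and those of KO HDM ran against naive WT (-0.305) and naive KO (-0.136); with a replicate block 0 genes passed for male HDM, 0 for HDM minus naive and 2018 for male minus female, and no named gene passed. At these depths 1 CPM is 27.6 to 32.8 reads, which limits genes such as Frmpd4.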

Other observations

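Lists not described above had mixed members in the male HDM comparison, counted at an unadjusted p under 0.05 with none passing in edgeR after adjustment. Over all genes, 7.65% were higher and 10.5% lower at that threshold. Ion and fluid transport genes had 2 of 18 higher and 5 lower, with a median of -0.30. Proteases, inhibitors and matrix genes had 2 of 26 higher and 6 lower (median -0.29), and glycolysis and hypoxia genes 2 of 26 higher and 5 lower (median -0.20). Circadian clock genes had 4 of 18 higher and 1 lower (median 0.14), and TGF-beta targets 2 of 22 higher and 2 lower (median -0.24). Mitochondrially encoded genes had 1 of 13 higher and 0 lower (median 0.36). Inflammatory cytokines and NF-kB feedback genes had 3 of 26 lower (11.5%), near the share over all genes. Receptors for mite allergens and microbial patterns had 3 of 21 lower (14.3%). None was higher in either list. Among rarer epithelial cells, ionocyte markers had 1 of 8 lower, tuft markers 1 of 7 higher and neuroendocrine markers 0 of 6 in either direction.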
